A study of Homo sapiens with 4 samples.

Results

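The SERPIN family genes described here were chosen by their symbol, SERPIN followed by a clade letter from A to I and a number, and were 34 of the 24462 genes counted in HepG2, a human cell line from a liver cancer. Of these, 16 were in the clades whose products are mostly secreted by the liver (11 in clade A, 1 in C, 1 in D, 2 in F and 1 in G), 13 were in clade B, whose products mostly stay inside the cell, and 5 were in clades E, H and I. Gene expression was measured by QuantSeq 3′ mRNA sequencing in 4 libraries, 1 for each condition. The cells had been given DMSO, the solvent control, or PD0332991, a small molecule that inhibits the kinases CDK4 and CDK6, or had received by transfection either a scrambled siRNA or siRNAs that target CDK4 and CDK6 together (CDK4/6 KD). All 4 libraries came from the same line, grown in RPMI medium with 10% fetal bovine serum and antibiotics, and neither the dose and duration of the treatment nor the interval from transfection to harvest was given for the sequenced cells in the sources used here. With no second library of any condition, the spread between replicates is unknown and p-values were left out.

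Serpins share a fold in which a mobile loop is offered to a protease as bait. In the inhibitory members the protease cleaves the loop, which then snaps into the body of the serpin and traps the enzyme, while other members have lost this activity and carry hormones, help collagen to fold or act as signals. Hepatocytes make most of the serpins of blood plasma, among them the main inhibitors of leukocyte elastase, thrombin and plasmin, whereas clade B serpins lack a classical signal peptide and protect cells from proteases inside them.

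Annotated promoters are shown for 3 of the most counted secreted serpins, for SERPINA7, which differed in direction between the comparisons, and for SERPINB9, the clade B gene with the largest difference. RefSeq windows on GRCh38.p14, each from 250 bases before to 50 bases after an annotated start, were found for 16 of the 20 serpins with at least 10 reads in a library. TTNNGNAA, a motif of the C/EBP factors of liver and fat, was searched on both strands and was in the windows of 5 of 9 secreted serpins, 2 of 4 clade B serpins and 1 of 3 serpins of clades E, H and I, against 36.8% of all 35116 windows. GGGCGG, the GC box, also searched on both strands, was in 3 of 9, 3 of 4 and 2 of 3, against 45%. TATAAA, the TATA box, searched on the strand of the gene, was in 1 of 9, 3 of 4 and 0 of 3, against 7.33%. These counts take the letters anywhere in the window. In clade B they lay at -30 to -25 in SERPINB9 and at -140 to -135 in SERPINB8, and in SERPINB6 not wholly before a start. Genes with more than 1 window had more than 1 chance of a match. The 150 bases before the start are given for 5 genes, 5′ to 3′ on the strand of the gene, with these 3 motifs in capitals.
SERPINA3, chr14:94612241-94612390, plus strand: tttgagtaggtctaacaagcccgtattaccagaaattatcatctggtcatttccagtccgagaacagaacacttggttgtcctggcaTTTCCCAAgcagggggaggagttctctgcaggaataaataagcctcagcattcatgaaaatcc
SERPINA5, chr14:94581276-94581425, plus strand: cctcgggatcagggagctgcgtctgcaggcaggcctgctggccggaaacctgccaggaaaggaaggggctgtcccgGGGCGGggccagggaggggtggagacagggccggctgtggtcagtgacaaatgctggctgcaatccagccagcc
SERPINA7, chrX:106038728-106038877, minus strand: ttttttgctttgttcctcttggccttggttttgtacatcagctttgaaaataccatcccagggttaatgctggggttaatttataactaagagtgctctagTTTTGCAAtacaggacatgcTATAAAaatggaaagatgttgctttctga
SERPIND1, chr22:20773963-20774112, plus strand: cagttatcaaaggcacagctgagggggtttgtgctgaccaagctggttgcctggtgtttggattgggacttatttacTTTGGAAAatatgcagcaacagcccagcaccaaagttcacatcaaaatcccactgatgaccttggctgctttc
SERPINB9, chr6:2903310-2903459, minus strand: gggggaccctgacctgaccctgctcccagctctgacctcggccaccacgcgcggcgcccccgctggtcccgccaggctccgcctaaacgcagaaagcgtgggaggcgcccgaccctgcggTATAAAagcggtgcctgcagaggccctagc

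Counted back from the start, with -1 as the last base before it, the C/EBP letters lay at -63 to -56 in SERPINA3, -73 to -66 in SERPIND1 and -49 to -42 in SERPINA7. The TATA box lay at nearly the same place in SERPINA7 and SERPINB9, at -29 to -24 and -30 to -25, while SERPINA5 held a GC box at -74 to -69. TTCNNNGAA, a STAT motif searched on both strands, was in the windows of 4 of 9 secreted serpins, 2 of 4 of clade B and 0 of 3 of the others, against 7.66%. TGANTCA, the AP-1 motif, was on either strand in the window of 1 of these 16 serpins, SERPINB8, against 7.71%, and also before the start of 7 serpins with fewer reads. Overlaps between motifs were not removed, the start used in HepG2 was not measured, and a match of letters is a description of the sequence only.

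The totals ran from 8983848 to 11176880 reads per library, in which 12780 to 13257 genes reached 10 reads. Levels are given in CPM, the reads of a gene scaled by the TMM-corrected library size. Reads in this method come from the 3′ end of a transcript, so CPM was compared between genes without division by length. A fold change is the ratio of CPM after 0.5 reads were added to each count, for genes that reached 10 reads in 1 of the libraries compared, and the interval behind it is an exact 95% Clopper-Pearson interval that covers counting error only and takes no account of PCR copies. The targeted genes matched the labels. CDK4 had 2754 reads in DMSO, 2344 in PD0332991, 3789 in scrambled siRNA and 814 in CDK4/6 KD, a fold change of 0.203 (0.188 to 0.219) between the siRNA libraries, and that of CDK6 was 0.241 (0.228 to 0.256). All 12 hepatocyte markers were present, with a summed level from 18655 to 25262 CPM, while the summed level of 6 endothelial markers was at most 0.657 CPM.

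The secreted liver serpins held most of the serpin reads of HepG2. The 34 serpins took 0.264% of the reads (95% interval 0.261 to 0.267) in DMSO, 0.41% (0.406 to 0.414) in PD0332991, 0.198% (0.195 to 0.2) in scrambled siRNA and 0.328% (0.325 to 0.331) in CDK4/6 KD, so that each CDK4/6 library held more than its own control. The secreted liver serpins made up 90%, 92.1%, 85.5% and 88.5% of these reads in the same order. Their summed level was 2374 CPM in DMSO, 3723 CPM in PD0332991, 1768 CPM in scrambled siRNA and 2822 CPM in CDK4/6 KD. Clade B summed to 103, 130, 103 and 126 CPM, and clades E, H and I to 159, 190, 196 and 240 CPM. In bulk RNA a smaller number of cells of a kind and less RNA per cell cannot be told apart.

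**Figure D1:**
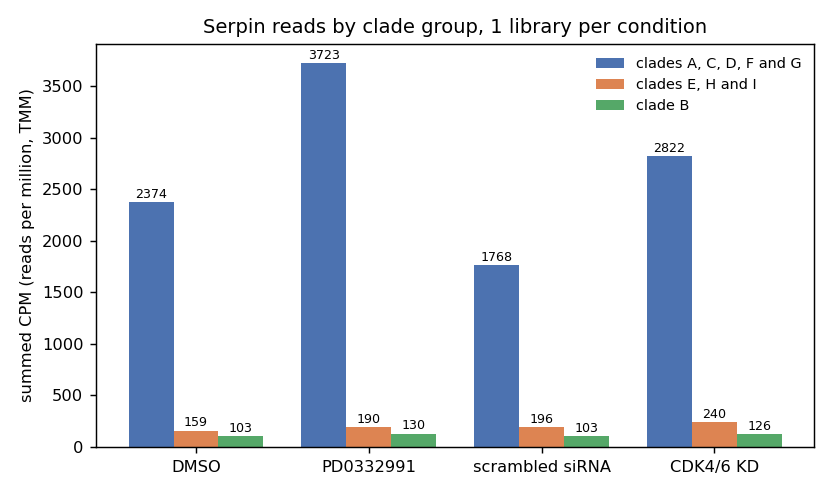
Summed level of the secreted clades A, C, D, F and G, of clades E, H and I and of clade B, in CPM, in each of the 4 libraries (bars, no error because each condition had 1 library). The secreted serpins are lowest in scrambled siRNA at 1768 CPM and highest in PD0332991 at 3723 CPM, while clades E, H and I run from 159 CPM in DMSO to 240 CPM in CDK4/6 KD.

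Of the 34 serpins, 20 had at least 10 reads in a library: 13 secreted liver serpins, 4 of clade B and 3 of clades E, H and I. The other 14 had at most 5 reads in any library, and 6 of them (SERPINB4, SERPINB10, SERPINB11, SERPINB12, SERPINB13 and SERPINI2) had 0 reads in all 4. A count of 0 allows a level of up to 0.328 CPM in DMSO, 0.329 CPM in PD0332991, 0.28 CPM in scrambled siRNA and 0.265 CPM in CDK4/6 KD, taken as 3 reads per library. The 3 secreted members among the 14 were SERPINA2, which RefSeq lists as a pseudogene, SERPINA9 and SERPINA12. The others were SERPINE3 and SERPINB2, SERPINB3, SERPINB5 and SERPINB7.

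**Figure D2:**
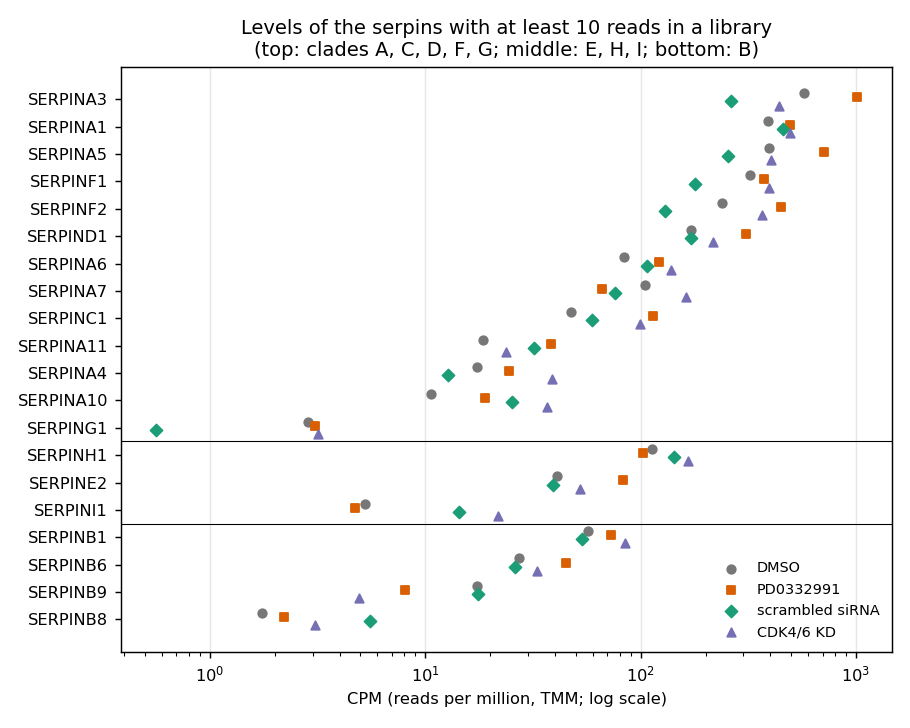
Level in CPM (log axis) of the 20 serpins with at least 10 reads in a library, 1 point per library, with the secreted clades at the top, clades E, H and I in the middle and clade B at the bottom. The levels run from 0.561 CPM for SERPING1 in scrambled siRNA to 1014 CPM for SERPINA3 in PD0332991.

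The first comparison was CDK4/6 KD against scrambled siRNA. At least 2-fold higher in CDK4/6 KD were 5 of 13 secreted serpins, 0 of 4 clade B serpins and 0 of 3 of clades E, H and I, against 9.19% of the 13617 genes compared. At least 2-fold lower were 0, 1 and 0, against 7.62% of all genes. The median log2 fold change was 0.74 for the secreted serpins, -0.24 for clade B and 0.41 for clades E, H and I, beside -0.00 for all genes. The 12 hepatocyte markers moved like the secreted serpins, with 5 at least 2-fold higher, 0 lower and a median of 0.79. The 5 higher genes were SERPING1, SERPINA4, SERPINF2, SERPINF1 and SERPINA7, and the lower one SERPINB9. SERPING1 had 6 reads in scrambled siRNA and passed the filter only through CDK4/6 KD, which favours a higher call. Against DMSO in place of scrambled siRNA, 3 of 13 secreted serpins were at least 2-fold higher in CDK4/6 KD, with 8.04% of all genes, and 0 were at least 2-fold lower, with 8.16% of all genes. The higher genes were then SERPINA10, SERPINA4 and SERPINC1, so that only SERPINA4 passed 2-fold against either control.

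The second comparison was PD0332991 against DMSO. At least 2-fold higher after PD0332991 were 2 of 13 secreted serpins (SERPINC1 and SERPINA11), 0 of 4 of clade B and 1 of 3 of clades E, H and I (SERPINE2), against 7.49% of the 13443 genes compared. At least 2-fold lower were 0, 1 (SERPINB9) and 0, against 7.06%. The secreted serpins moved by less than 2-fold for the most part, with a median log2 fold change of 0.83 beside 0.02 for all genes and 0.46 for the hepatocyte markers, of which 0 passed 2-fold, and the medians of clade B and of clades E, H and I were 0.34 and -0.14. Against scrambled siRNA in place of DMSO, 5 of 13 secreted serpins were at least 2-fold higher, with 10.6% of all genes, and 0 were at least 2-fold lower, with 8.17% of all genes. The higher genes were then SERPING1, SERPINA3, SERPINF2, SERPINA5 and SERPINF1, while SERPINC1 was at 1.92 and SERPINA11 at 1.2. SERPING1 passed the filter here only through PD0332991. No secreted serpin thus passed 2-fold against both controls after PD0332991.

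The choice of control matters here because the controls differed from each other. In CDK4/6 KD against DMSO the median log2 fold change was 0.36 for the secreted serpins, beside 0.67 for the hepatocyte markers. It was 0.43 for clade B and 0.56 for clades E, H and I. In PD0332991 against scrambled siRNA the medians were 0.93 for the secreted serpins, -0.33 for clade B and -0.48 for clades E, H and I. The median of clade B thus changed sign with the control in both cases, through SERPINB8, which had 16 reads in DMSO and 59 in scrambled siRNA. SERPINB1, SERPINB6 and SERPINB9 kept their direction against either control. In scrambled siRNA against DMSO, 1 of 13 secreted serpins was at least 2-fold higher, with 5.3% of all genes, and 2 were at least 2-fold lower, with 6.64% of all genes. Of clade B, SERPINB8 was at least 2-fold higher, as was SERPINI1. The median log2 fold change of the secreted serpins was -0.43, that of clade B -0.02 and that of clades E, H and I 0.34, beside 0.01 for all genes. A fold change above 1 in both CDK4/6 KD against scrambled siRNA and PD0332991 against DMSO was found for 11 of 13 secreted serpins, with 29.7% of all genes. A fold change above 1 for both CDK4/6 libraries against either control was found for 9 of them, with 21.2% of all genes, and also for SERPINB1, SERPINB6 and SERPINE2. SERPINB9 was the serpin with all 4 of these fold changes below 1, as were 22% of all genes. These comparisons share libraries and are not independent of each other.

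**Figure D3:**
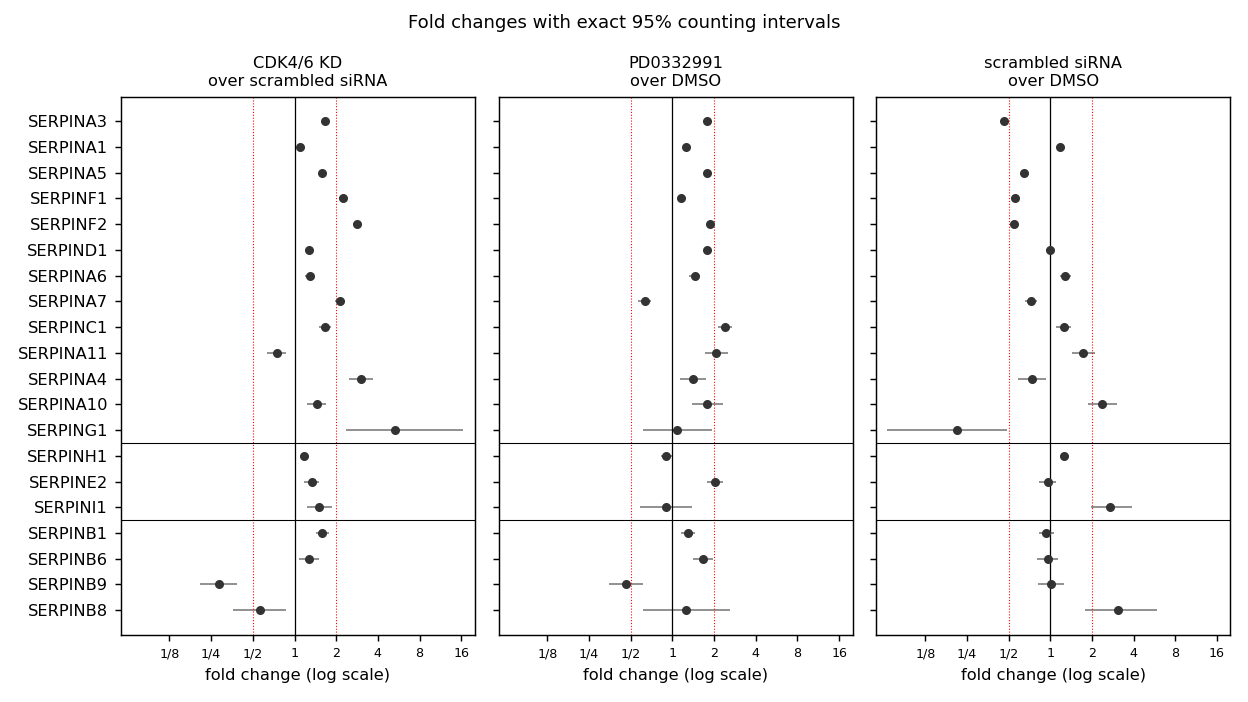
Fold change (log axis) of 20 serpins in CDK4/6 KD against scrambled siRNA, in PD0332991 against DMSO and in scrambled siRNA against DMSO, with 95% counting intervals as lines, 1 as a solid line and 2-fold in either direction dotted. In the first panel 12 of 13 secreted serpins lie above 1 and in the second panel 12 of 13 do, while in the third they lie on both sides.

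Among inhibitors of leukocyte proteases, SERPINA3 (alpha-1-antichymotrypsin, an inhibitor of cathepsin G) was the most variable of the abundant members. It had 5223 reads (572 CPM) in DMSO, 9229 (1014 CPM) in PD0332991, 2816 (263 CPM) in scrambled siRNA and 4961 (438 CPM) in CDK4/6 KD. Each CDK4/6 library was above its own control, but CDK4/6 KD was below DMSO, since scrambled siRNA was the lowest of all. The fold change was 1.67 (1.59 to 1.74) in CDK4/6 KD against scrambled siRNA and 0.767 (0.737 to 0.797) against DMSO, and it was 1.77 (1.71 to 1.83) in PD0332991 against DMSO and 3.85 (3.69 to 4.02) against scrambled siRNA. By reads SERPINA3 held rank 234 in DMSO, 99 in PD0332991, 689 in scrambled siRNA and 314 in CDK4/6 KD among all genes.

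SERPINA1 (alpha-1-antitrypsin, the main inhibitor of neutrophil elastase) was as abundant and much steadier. It had 3570 reads (391 CPM) in DMSO, 4472 (491 CPM) in PD0332991, 4877 (456 CPM) in scrambled siRNA and 5618 (496 CPM) in CDK4/6 KD. The lowest library was DMSO, and the other 3 lay close together, with fold changes of 1.09 (1.05 to 1.13) between the siRNA libraries and 1.26 (1.2 to 1.31) after PD0332991. The leukocyte proteases ELANE, CTSG, PRTN3, GZMB and GZMA had 0 reads in all 4 libraries.

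Among the inhibitors of coagulation, SERPINC1 (antithrombin, which blocks thrombin and factor Xa with heparin) was higher in both CDK4/6 libraries than in both controls. It had 434 reads (47.5 CPM) in DMSO, 1038 (114 CPM) in PD0332991, 635 (59.3 CPM) in scrambled siRNA and 1121 (99 CPM) in CDK4/6 KD. The fold change was 2.4 (2.14 to 2.69) after PD0332991 and 1.67 (1.51 to 1.84) between the siRNA libraries, and it was 2.08 (1.86 to 2.33) in CDK4/6 KD against DMSO. SERPIND1 (heparin cofactor II, a thrombin inhibitor) had the most even controls, with 1563 reads (171 CPM) in DMSO and 1836 (172 CPM) in scrambled siRNA beside 2791 (307 CPM) in PD0332991 and 2460 (217 CPM) in CDK4/6 KD. Its fold change was 1.79 (1.68 to 1.91) after PD0332991 and 1.27 (1.19 to 1.35) in CDK4/6 KD, and 1 (0.937 to 1.07) between the controls. The 3′ end of SERPIND1 lies within PI4KA on the opposite strand, and whether reads were counted by strand is not given in the sources used here.

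SERPINA5 (the protein C inhibitor) had 3614 reads (396 CPM) in DMSO, 6426 (706 CPM) in PD0332991, 2733 (255 CPM) in scrambled siRNA and 4577 (404 CPM) in CDK4/6 KD. It was higher than its own control in both CDK4/6 libraries, by 1.78 (1.71 to 1.86) and 1.58 (1.51 to 1.66), but CDK4/6 KD against DMSO gave 1.02 (0.978 to 1.07), whose interval holds 1, and PD0332991 against scrambled siRNA gave 2.76 (2.64 to 2.89). SERPINA10 (the protein Z-dependent inhibitor of factor Xa) ranged from 10.6 CPM in DMSO to 36.6 CPM in CDK4/6 KD, and scrambled siRNA lay above PD0332991. Its fold change after PD0332991 was 1.78 (1.38 to 2.31) against DMSO and 0.749 (0.615 to 0.91) against scrambled siRNA, and in CDK4/6 KD it was 1.45 (1.24 to 1.7) against scrambled siRNA and 3.43 (2.76 to 4.34) against DMSO.

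Some of the coagulation genes whose products meet these serpins were higher in the CDK4/6 libraries. Of a list of 12 coagulation and contact proteases and cofactors, 8 had enough reads between the siRNA libraries, of which 3 were at least 2-fold higher in CDK4/6 KD (9.19% of all genes) and 0 lower (7.62%), with a median log2 fold change of 0.92. After PD0332991, 5 of 9 were at least 2-fold higher (7.49% of all genes) and 0 lower (7.06%), with a median of 1.02. Of the 5, KLKB1 had 6 reads in DMSO and passed the filter only through PD0332991, which favours a higher call. PROS1 (protein S) was at 1.09 (0.955 to 1.25) in CDK4/6 KD and 0.865 (0.752 to 0.994) after PD0332991, and F9, THBD and HRG had at most 3 reads in any library. PROZ (protein Z, the cofactor of SERPINA10) had 23 reads in DMSO, 78 in PD0332991, 22 in scrambled siRNA and 106 in CDK4/6 KD. F7 (factor VII) had a fold change of 4.51 (3.88 to 5.27) in CDK4/6 KD and 2.46 (2.09 to 2.91) after PD0332991, while F2 (prothrombin), the target of antithrombin, had 1.11 (1.06 to 1.16) and 1.49 (1.42 to 1.57).

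Both clade F genes were higher in CDK4/6 KD than in any control. SERPINF2 (alpha-2-antiplasmin, the main inhibitor of plasmin) had 2171 reads (238 CPM) in DMSO, 4069 (447 CPM) in PD0332991, 1389 (130 CPM) in scrambled siRNA and 4154 (367 CPM) in CDK4/6 KD. Scrambled siRNA was again the lowest library, and the fold change of 2.83 (2.66 to 3.01) in CDK4/6 KD became 1.54 (1.47 to 1.63) against DMSO. After PD0332991 it was 1.88 (1.78 to 1.98), or 3.44 (3.24 to 3.66) against scrambled siRNA. SERPINF1 (pigment epithelium-derived factor, which does not inhibit proteases) had 2939 reads (322 CPM) in DMSO, 3384 (372 CPM) in PD0332991, 1902 (178 CPM) in scrambled siRNA and 4486 (396 CPM) in CDK4/6 KD. Its fold change of 2.23 (2.11 to 2.35) in CDK4/6 KD became 1.23 (1.18 to 1.29) against DMSO, and that of 1.16 (1.1 to 1.21) after PD0332991 became 2.09 (1.98 to 2.21) against scrambled siRNA.

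A list of 9 genes was taken for fibrinolysis, the system that SERPINF2 holds in check. In CDK4/6 KD 2 were at least 2-fold higher (9.19% of all genes) and 1 lower (7.62%), with a median log2 fold change of 0.10. After PD0332991 2 were higher (7.49%) and 0 lower (7.06%), with a median of 0.27. TMPRSS6 was among the higher ones in both, at 7.01 (3.37 to 19.3) and 2.29 (1.33 to 4.21). Its count was 7 with scrambled siRNA against 55 after the knockdown. It thus passed the filter there only through the knockdown library, which favours a higher call. Whether TMPRSS6 acts in this system was not tested, so these counts are no measure of the plasmin system alone. With so few genes, the counts of this list were not tested against the shares of all genes. PLG (plasminogen, the source of plasmin) had 21 to 30 reads, too few to show a difference of the size seen between its own counts at this depth. VTN (vitronectin, an adhesive plasma protein) had 196, 275, 261 and 694 reads in DMSO, PD0332991, scrambled siRNA and CDK4/6 KD, a fold change of 2.51 (2.18 to 2.91) between the siRNA libraries.

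SERPING1 (the C1 inhibitor, which holds back C1R, C1S and plasma kallikrein) had few reads. It had 26 reads (2.85 CPM) in DMSO, 28 (3.08 CPM) in PD0332991, 6 (0.561 CPM) in scrambled siRNA and 36 (3.18 CPM) in CDK4/6 KD. A single low library, scrambled siRNA, set its fold change of 5.32 (2.37 to 16.5) in CDK4/6 KD, which was 1.12 (0.656 to 1.93) against DMSO. After PD0332991 it was 1.08 (0.611 to 1.92) against DMSO and 5.11 (2.23 to 16.2) against scrambled siRNA. Its target C1R had the same low library, with 43, 35, 12 and 51 reads in that order of libraries, a fold change of 3.9 (2.11 to 8.28) in CDK4/6 KD and 0.958 against DMSO. The summed level of 8 fibroblast markers was also lowest there, with 49.9 CPM in DMSO, 80.5 CPM in PD0332991, 8.88 CPM in scrambled siRNA and 23.1 CPM in CDK4/6 KD. Most of their reads were of COL1A1, with 332, 468, 73 and 207 reads. COL1A2, COL3A1 and PDGFRB were also lowest in scrambled siRNA, while THY1, with 13, 13, 3 and 2 reads, was lowest in CDK4/6 KD. DCN had 0, 18, 0 and 2 reads, LUM 2, 8, 0 and 0 and PDGFRA 2, 2, 0 and 3. Between the siRNA libraries 2 of the 8 had enough reads. Fibroblasts also express SERPING1, SERPINF1, SERPINE2 and SERPINH1, and the part of such cells in the values of these genes was not tested.

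**Figure D4:**
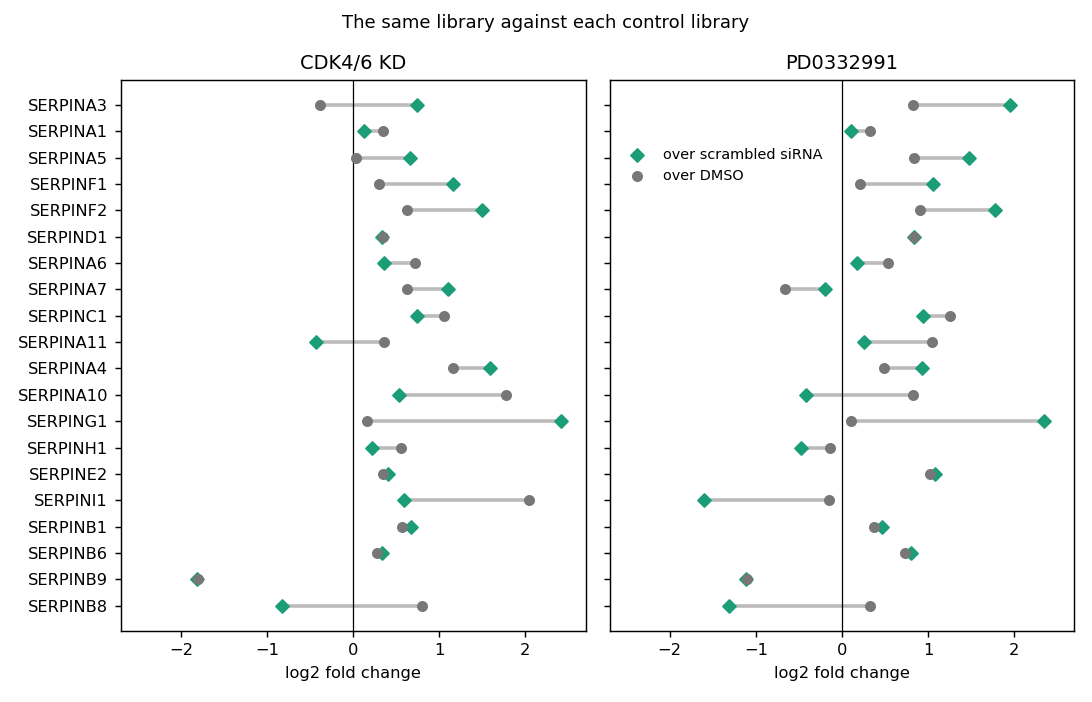
Log2 fold change of 20 serpins in CDK4/6 KD and in PD0332991, each against scrambled siRNA (diamonds) and against DMSO (circles), joined by a line. The points of SERPINB9, SERPINB1, SERPINB6, SERPIND1 and SERPINE2 nearly coincide, while those of SERPINA3, SERPINA10, SERPINF1, SERPINF2, SERPING1, SERPINI1 and SERPINB8 lie far apart.

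The hormone carriers of clade A, which bind steroid and thyroid hormones and inhibit no protease, did not move alike. SERPINA7 (thyroxine-binding globulin) had 960 reads (105 CPM) in DMSO, 604 (66.3 CPM) in PD0332991, 816 (76.3 CPM) in scrambled siRNA and 1847 (163 CPM) in CDK4/6 KD. PD0332991 was thus the lowest library and CDK4/6 KD the highest, with a fold change of 0.632 (0.569 to 0.7) after PD0332991 and 2.14 (1.97 to 2.33) between the siRNA libraries. SERPINA6 (the cortisol-binding globulin) had 767 reads (83.9 CPM) in DMSO, 1110 (122 CPM) in PD0332991, 1148 (107 CPM) in scrambled siRNA and 1561 (138 CPM) in CDK4/6 KD. It was higher than either control in both CDK4/6 libraries, with fold changes of 1.45 (1.32 to 1.59) after PD0332991 and 1.29 (1.19 to 1.39) in CDK4/6 KD. TTR, another carrier of thyroxine, had a fold change of 1.54 (1.44 to 1.65) after PD0332991 and 1.26 (1.2 to 1.32) in CDK4/6 KD.

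SERPINA4 (kallistatin, an inhibitor of tissue kallikrein) was low in the other 3 libraries and highest in CDK4/6 KD, with 158 reads (17.3 CPM) in DMSO, 222 (24.4 CPM) in PD0332991, 137 (12.8 CPM) in scrambled siRNA and 438 (38.7 CPM) in CDK4/6 KD. Its fold change was 3.02 (2.49 to 3.69) in CDK4/6 KD, 2.23 (1.86 to 2.7) against DMSO, and 1.41 (1.14 to 1.74) after PD0332991. SERPINA11, a less studied member, had 169 reads (18.5 CPM) in DMSO, 349 (38.3 CPM) in PD0332991, 343 (32.1 CPM) in scrambled siRNA and 269 (23.8 CPM) in CDK4/6 KD. It was the secreted serpin with a fold change below 1 between the siRNA libraries, at 0.742 (0.63 to 0.872), which became 1.28 (1.06 to 1.57) against DMSO, and it was 2.07 (1.72 to 2.51) after PD0332991, or 1.2 (1.03 to 1.39) against scrambled siRNA. AGT (angiotensinogen, a serpin by structure whose symbol is outside the rule) was at 1124, 1616, 1223 and 1117 CPM in DMSO, PD0332991, scrambled siRNA and CDK4/6 KD.

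Many of the secreted serpins are neighbours. In the order of RefSeq on GRCh38.p14, SERPINA10, SERPINA6, SERPINA1 and SERPINA11 lie on the minus strand of chromosome 14, with SERPINA2, SERPINA9 and SERPINA12, which had too few reads, among and after them, and SERPINA4, SERPINA5 and SERPINA3 follow on the plus strand. In scrambled siRNA against DMSO the 4 genes of the minus strand were all higher, at 2.37 (1.88 to 3.03), 1.28 (1.17 to 1.4), 1.17 (1.12 to 1.22) and 1.73 (1.44 to 2.1), and the 3 of the plus strand all lower, at 0.741 (0.585 to 0.937), 0.646 (0.614 to 0.679) and 0.46 (0.44 to 0.482). Of all genes compared, 28.3% had an interval above 1 and 28% an interval below 1. In CDK4/6 KD against scrambled siRNA the order was the reverse, with 1.45, 1.29, 1.09 and 0.742 on the minus strand and the higher values 3.02, 1.58 and 1.67 on the plus strand, and both comparisons share the scrambled siRNA library. After PD0332991 all 7 genes had intervals above 1, as did 28.1% of all genes, and the ranges of the strands overlapped. Each condition had 1 library, and a link of these values to strand was not tested. The ends of SERPINA3 and SERPINA5 overlap the readthrough gene AL049839.2, that of SERPINA4 overlaps SERPINA5 and that of SERPINA11 overlaps the antisense gene AL132708.1 in GENCODE 29, so reads of these genes could be shared.

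**Figure D5:**
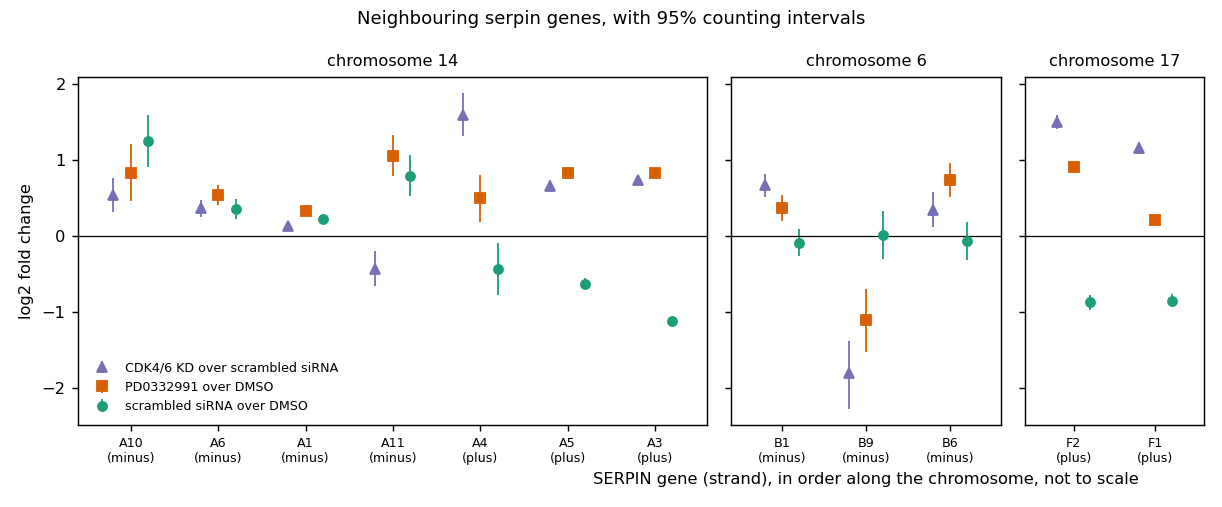
Log2 fold change, with 95% counting intervals, of neighbouring serpin genes in their order along chromosomes 14, 6 and 17 (not to scale, strand in brackets, genes with too few reads left out), for CDK4/6 KD against scrambled siRNA, PD0332991 against DMSO and scrambled siRNA against DMSO. On chromosome 14 the circles of scrambled siRNA lie above 0 for the minus strand and below 0 for the plus strand, and on chromosome 6 SERPINB9 lies below 0 between SERPINB1 and SERPINB6 above 0 for both CDK4/6 comparisons.

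SERPINF2 and SERPINF1 adjoin on chromosome 17 and had like fold changes in scrambled siRNA against DMSO, 0.546 (0.51 to 0.585) and 0.553 (0.521 to 0.586). Between the CDK4/6 libraries and their controls the pair did not keep step, since SERPINF2 was at 1.88 and SERPINF1 at 1.16 after PD0332991, with intervals that do not overlap. On chromosome 6, SERPINB9 lies between SERPINB1 and SERPINB6 on the same strand and differed in direction from both. The remaining clade B genes lie together on chromosome 18, where SERPINB8 alone had at least 10 reads in a library.

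SERPINB9, the inhibitor of granzyme B that shields cells from the granules of cytotoxic lymphocytes, was the clade B gene with the largest difference, and it was lower in both CDK4/6 libraries. It had 158 reads (17.3 CPM) in DMSO, 73 (8.02 CPM) in PD0332991, 187 (17.5 CPM) in scrambled siRNA and 56 (4.95 CPM) in CDK4/6 KD. The controls were alike, with a fold change of 1.01 (0.813 to 1.26) between them. The fold change was 0.285 (0.206 to 0.383) in CDK4/6 KD against scrambled siRNA and 0.288 (0.207 to 0.39) against DMSO, and 0.465 (0.346 to 0.616) after PD0332991, or 0.46 (0.345 to 0.604) against scrambled siRNA. Of 7 leukocyte markers, CD3E, ELANE and TYROBP had 0 reads in all 4 libraries, PTPRC and MPO at most 2, and CD68 75 to 136. LYZ (lysozyme) was abundant, with 6780 reads in DMSO, 4587 in PD0332991, 10932 in scrambled siRNA and 5676 in CDK4/6 KD. Like SERPINB9 it was lower in both CDK4/6 libraries, at 0.491 (0.475 to 0.507) in CDK4/6 KD and 0.679 (0.654 to 0.705) after PD0332991. The summed level of the list was 751, 516, 1035 and 508 CPM, of which LYZ alone held 742, 504, 1022 and 501 CPM. The sum is therefore a level of LYZ more than of leukocytes, and any link of LYZ or of leukocytes to SERPINB9 was not tested.

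SERPINB1, an inhibitor of neutrophil proteases, ranged from 53.2 CPM in scrambled siRNA to 84.4 CPM in CDK4/6 KD, with fold changes of 1.59 (1.43 to 1.76) in CDK4/6 KD and 1.29 (1.15 to 1.45) after PD0332991. SERPINB6, a broadly expressed inhibitor, ranged from 26 CPM in scrambled siRNA to 45.1 CPM in PD0332991, with fold changes of 1.27 (1.08 to 1.49) and 1.66 (1.42 to 1.95). For both genes the controls did not differ beyond counting error. SERPINB8, an inhibitor of furin, had 16 to 59 reads, highest in scrambled siRNA, and its fold change in CDK4/6 KD was 0.564 (0.358 to 0.866) against scrambled siRNA and 1.74 (0.952 to 3.42) against DMSO. After PD0332991 it was 1.25 (0.618 to 2.59) against DMSO and 0.404 (0.227 to 0.671) against scrambled siRNA.

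The clade B serpins of squamous epithelium, SERPINB3, SERPINB4, SERPINB5, SERPINB7, SERPINB12 and SERPINB13, had at most 5 reads in any library although some keratin genes of the same epithelium were higher after PD0332991. KRT5 had 2 reads in DMSO, 113 in PD0332991, 13 in scrambled siRNA and 43 in CDK4/6 KD. KRT14 had 9, 249, 31 and 74. Of the 20 keratinocyte markers listed, 11 had enough reads after PD0332991 of which 9 were at least 2-fold higher (7.49% of all genes) and 1 lower (7.06%). In scrambled siRNA against DMSO, 7 of 10 were also at least 2-fold higher (5.3% of all genes). Most of the higher markers had fewer than 10 reads in DMSO and passed the filter only through the other library. That favours a higher call, so these counts are no measure of the whole list. Of the markers with at least 10 reads in DMSO, KRT10 was at 1.16, S100A2 at 3.01, KRT17 at 9.03 and SFN at 0.463 after PD0332991. TP63, DSG3, DSC3 and IVL had at most 7 reads in any library. SERPINB5 had 2 reads in DMSO, 5 in PD0332991, 2 in scrambled siRNA and 1 in CDK4/6 KD, so that a difference was not detectable at this depth.

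Of clades E, H and I, SERPINE2 (protease nexin 1, a thrombin inhibitor of the cell surface) had 375 reads (41 CPM) in DMSO, 757 (83.1 CPM) in PD0332991, 421 (39.3 CPM) in scrambled siRNA and 593 (52.4 CPM) in CDK4/6 KD. Its controls did not differ beyond counting error, and the fold change was 2.02 (1.79 to 2.3) after PD0332991 and 1.33 (1.17 to 1.51) in CDK4/6 KD. SERPINH1 (HSP47, the collagen chaperone of the endoplasmic reticulum) had 1030 reads (113 CPM) in DMSO, 929 (102 CPM) in PD0332991, 1525 (143 CPM) in scrambled siRNA and 1880 (166 CPM) in CDK4/6 KD. Both siRNA libraries lay above both others, and the fold change was 1.17 (1.09 to 1.25) in CDK4/6 KD and 0.905 (0.827 to 0.99) after PD0332991. Of 13 other genes compared in CDK4/6 KD, from a list of collagens and collagen folding genes, 1 was at least 2-fold higher (9.19% of all genes). It was the collagen COL27A1, at 2.2. Lower were 2 (7.62%), PLOD3 at 0.271 and the collagen COL4A2 at 0.419.

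SERPINI1 (neuroserpin, an inhibitor of PLAT in the nervous system) had 43 to 246 reads and was higher in both siRNA libraries than in both others. Its fold change in CDK4/6 KD was 1.51 (1.23 to 1.86) against scrambled siRNA and 4.11 (3.03 to 5.76) against DMSO. After PD0332991 it was 0.9 (0.582 to 1.39) against DMSO and 0.33 (0.228 to 0.463) against scrambled siRNA.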

How the data were processed

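HepG2 cells were profiled in 4 libraries with 1 library per group, and groups were taken from the sample labels. The counts deposited by the authors are whole reads for each gene symbol, without normalization or pooling. The submitters' processing notes name Bowtie2, edgeR and hg19 with no version or role, and the counter and annotation were not given in the sources used here. Of 25737 entries, 286 symbols were listed more than once and were summed, none of them a serpin. TMM factors from edgeR 4.0.16 (R 4.3.3) ran from 0.957 to 1.03. Called means at least 2-fold with at least 10 reads in either library. Intervals (scipy 1.17.1) compare libraries, not conditions, and the procedure was tested on simulated data.

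The serpins and all gene lists were chosen with earlier results of these data known, and 1 further gene with such a symbol and 3 genes of the lists are not reported here. Every serpin with at least 10 reads in a library was named, with reads and CPM for those that reached 100 CPM or 2-fold against the own control. From other lists, up to 4 genes were eligible whose whole interval was beyond 2-fold. F2, TTR, AGT, CEBPA, PROS1, F9, THBD, HRG, KLKB1, PLG, PLAU, COL4A2, ST14, TMPRSS2, ITIH4 and TFPI2 were added after their values were seen. So were the leukocyte markers, the leukocyte proteases and the fibroblast markers other than COL1A1. RefSeq promoter windows were not used here for SERPINC1, SERPINF1, SERPINF2 and SERPING1. The alternatives were DESeq2 1.42.0 size factors, total counts, 5 added reads in place of 0.5, other filters and thresholds, the control of the other arm and repeated symbols taken by their largest entry.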

Additional observations from a re-analysis of the deposited data

Results flagged for a closer look

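For 3 serpins the fold change lay on opposite sides of 1 in the comparisons of CDK4/6 KD with scrambled siRNA and of PD0332991 with DMSO, with both counting intervals clear of 1. SERPINA7 was at 2.14 in CDK4/6 KD and 0.632 after PD0332991. SERPINA11 was at 0.742 and 2.07, and SERPINH1 at 1.17 and 0.905. With 1 library per condition the difference between the comparisons was not tested. Against the control of the other arm, SERPINA7 and SERPINH1 kept both directions, while SERPINA11 was at 1.28 in CDK4/6 KD.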

How the results depend on the processing

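No paired analysis was possible because each condition had 1 library, and for the same reason no library could be left out. A count of higher or lower genes has no sign and could not reverse direction. With the control of the other arm, the median log2 fold change of clade B changed sign. It went from -0.24 to 0.43 in CDK4/6 KD and from 0.34 to -0.33 after PD0332991. Of the clade B genes compared, SERPINB8 alone changed direction. With a filter of 50 reads, that of clades E, H and I went from -0.14 to 0.44 after PD0332991. With DESeq2 size factors, 5 added reads or repeated symbols taken by their largest entry, every count and fold change run stayed within its limits. In CDK4/6 KD, 5 secreted serpins at least 2-fold higher became 3 against DMSO and 8 at 1.5-fold, and 0 lower became 2 with no filter. Clade B had 1 higher and 2 lower at 1.5-fold. Clades E, H and I had 1 higher against DMSO or at 1.5-fold, and 1 lower with no filter. After PD0332991, 2 secreted serpins higher became 5 against scrambled siRNA, 7 at 1.5-fold and 1 by the whole interval past 2-fold, and 1 was lower at 1.5-fold. Clade B had 3 higher with no filter and 1 at 1.5-fold, and 2 lower against scrambled siRNA and 0 by the whole interval. Clades E, H and I had 0 higher by the whole interval, and 1 lower against scrambled siRNA or with no filter. Between the controls, 1 secreted serpin higher became 3 with no filter, 2 at 1.5-fold and 0 by the whole interval, and 2 lower became 1 with a filter of 50 reads and 5 at 1.5-fold. Clade B had 2 higher and 1 lower with no filter and 0 higher by the whole interval, and clades E, H and I had 0 higher by the whole interval and 1 lower with no filter. CDK4 was at 0.239 against DMSO and CDK6 at 0.259 with total counts. Of single serpins, SERPINB9 between the controls was at 0.966 with total counts, and 5 fold changes crossed 1 with the other control: SERPINA11 at 1.28, SERPINA3 at 0.767 and SERPINB8 at 1.74 in CDK4/6 KD, and SERPINA10 at 0.749 and SERPINB8 at 0.404 after PD0332991. The cause of these shifts was not tested. Depth limited the 14 serpins with at most 5 reads, SERPING1 and SERPINB8, and no spread between cultures was measured.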

Other observations

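Proteases and inhibitors outside the serpin family gave values that belong in no comparison above. Of 6 cell surface serine proteases with enough reads, 5 were at least 2-fold higher in CDK4/6 KD against scrambled siRNA (9.19% of all genes) and 3 after PD0332991 (7.49%). Of the latter, ST14 (3 reads in DMSO, 14 in PD0332991) and TMPRSS2 (3 and 11) passed the filter only through PD0332991. That favours a higher call. HPN (hepsin) had 455 reads in DMSO, 1803 in PD0332991, 259 in scrambled siRNA and 890 in CDK4/6 KD, a fold change of 3.97 (3.59 to 4.42) after PD0332991 and 3.24 (2.83 to 3.75) in CDK4/6 KD. FURIN, the target of SERPINB8, was at 2.66 (2.17 to 3.29) in CDK4/6 KD against scrambled siRNA and at 0.828 against DMSO. Of 8 complement serine proteases, 3 were at least 2-fold higher in CDK4/6 KD (9.19% of all genes) and 0 after PD0332991 (7.49%). Against DMSO 1 of 8 was higher in CDK4/6 KD (8.04%), and 2 of 8 were at least 2-fold lower in scrambled siRNA than in DMSO (6.64%). CFB (factor B) had 814, 1264, 754 and 2029 reads in DMSO, PD0332991, scrambled siRNA and CDK4/6 KD.

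Of 15 protease inhibitors outside the family, 3 were at least 2-fold higher (9.19% of all genes) and 2 lower (7.62%) in CDK4/6 KD, and 4 were higher (7.49%) and 0 lower (7.06%) after PD0332991. Among the higher ones, ITIH1 and ITIH4 in both comparisons and SLPI after PD0332991 had fewer than 10 reads in the control. They passed the filter only through the other library, which favours a higher call. TFPI2, lower in CDK4/6 KD, passed it only through scrambled siRNA. These counts are no measure of the whole list. Among 12 liver transcription factors, 4 were at least 2-fold higher (9.19%) and 1 lower (7.62%) in CDK4/6 KD against scrambled siRNA. Against DMSO 0 were higher (8.04%), and 4 of 12 were lower in scrambled siRNA than in DMSO (6.64%). None passed 2-fold after PD0332991 by point estimate, with a median log2 fold change of 0.11. CEBPA, a C/EBP factor, had 1466 reads in DMSO, 1174 in PD0332991, 418 in scrambled siRNA and 712 in CDK4/6 KD. Scrambled siRNA was its lowest library. It was picked with its values known, and its relation to the serpins was not tested.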
